A study of Mus musculus with 111 samples.

Results

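Myelin is the lipid-rich membrane that oligodendrocytes wrap around axons. In a piece of brain tissue, the transcripts of its proteins are read both as a measure of how much myelinating tissue the piece holds and as genes that can be regulated in their own right. The genes *Mbp*, *Mog*, *Mag*, *Mobp*, *Cnp*, *Cldn11* and *Opalin* were followed through a data set of the tuberomammillary nucleus (TMN) of the mouse, the part of the posterior hypothalamus where the neurons that make histamine sit. They are 7 of the 54087 gene names counted in each library, and all 7 had counts.

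The libraries came from the TMN of young adult mice of both sexes (C57BL/6 in the labels, C57BL/6J in the study's methods). Every mouse had received an adeno-associated virus (AAV) into the TMN, and the infected tissue was dissected 3 weeks later at Zeitgeber time (ZT) 0, 4, 8, 12, 16 or 20 h, where ZT0 is lights on. The virus carried GFP alone (GFP, 32 libraries), wild-type histone H3.3 together with GFP (H3.3, 39 libraries), or H3.3 whose glutamine at position 5 was replaced by alanine, again with GFP (Q5A, 39 libraries). Q5A cannot carry a monoamine at that residue and was used as a dominant negative against H3 monoaminylation. The study also describes mice that received no virus. They were not analysed here, so no comparison with virus-free tissue is made. GFP and H3.3 libraries were pooled as controls (71 libraries), as the study did. The 18 combinations of virus and time held 4 to 8 libraries each, from up to 3 cohorts, the only batch that the labels name. Cohort 1 held 78 libraries (28 GFP, 24 H3.3, 26 Q5A), cohort 2 held 24 (4, 10 and 10) and cohort 3 held 8 (0, 5 and 3). The mice behind the libraries were not pooled. The tissue was a mixture of cells, and in such bulk tissue fewer oligodendrocytes and less RNA per oligodendrocyte cannot be told apart.

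The libraries held between 673306 and 3375352 counts over all genes (median 1474422). One pair, Q5A at ZT4, cohort 2, replicates 2 and 3, differed by less than the sampling noise. Its mean was used as 1 sample. Neuronal, astrocyte and microglial markers were present in each library. *Hdc*, the enzyme that makes histamine and the defining marker of TMN neurons, had a median count of 4 and was counted in 99 of 110 libraries. Of the markers of peripheral nerve myelin, *Pmp2* was at 0 in all libraries and *Ncmap* had a median count of 0, whereas *Prx* (median 4.5, in 101 libraries) and *Pmp22* (median 9, in 110 libraries) were counted.

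Median counts over the 110 libraries were 976.5 for *Mbp*, 848 for *Cnp*, 332 for *Mobp*, 63 for *Mag*, 46 for *Mog*, 28 for *Cldn11* and 5.5 for *Opalin*, which was at 0 in 2 libraries. *Mbp* encodes myelin basic protein, which holds the cytoplasmic faces of compact myelin together, and *Mobp* another basic protein of compact myelin. *Mag* encodes an adhesion protein on the inner, axon-facing myelin membrane and *Mog* one on its outer surface. *Cnp* encodes a cyclic nucleotide phosphodiesterase of non-compact myelin. *Cldn11* encodes the claudin of the tight junctions between myelin layers, and *Opalin* a glycoprotein of the oligodendrocyte membrane. With so few counts, *Opalin* had a counting error of 37.2% of its mean, against 2.86% for *Mbp*.

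In GRCm38, *Mbp* lies at chr18:82475146-82585637 (+), *Mog* at chr17:37010743-37023398 (-), *Mag* at chr7:30899176-30914873 (-) and *Mobp* at chr9:120149707-120181484 (+). *Cnp* lies at chr11:100574904-100591729 (+), *Cldn11* at chr3:31149920-31164324 (+) and *Opalin* at chr19:41061710-41077113 (-).

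Reads had been counted on 1 strand only. The study names a stranded kit (Illumina Stranded mRNA Prep, Ligation) and the option stranded=yes in HTSeq. Whether with this kit the rows hold reads of the gene's own strand or of the opposite one was not settled here. All values above and below, those of the cell markers and the order of abundance included, are given with that limit. Between 3.49% and 5.63% of uniquely placed reads fell in gene rows. *Cnp* is the one member whose exons overlap an annotated exon on the other strand. It shares 154 bases with *Dnajc7*, a co-chaperone gene at chr11:100582818-100620168 (-), so part of either row may belong to the other gene. The *Dnajc7* row had a median count of 93 (range 41 to 288). Within introns, *Mog* holds *Gm22388* (median count 4) and *Mbp* holds *Rpl21-ps8* (median count 0) on the other strand.

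The sequence before the start site is shown for 4 members, because *Mobp* and *Cldn11* varied together across libraries, whereas *Cnp* and *Mog* did not in the correlations given further on. The stretches are from RefSeq (GRCm38.p6), 5′ to 3′ on the strand of the gene, and end where the annotated gene begins. They are chr9:120149492-120149706 for *Mobp*, chr3:31149670-31149919 for *Cldn11*, chr11:100574689-100574903 for *Cnp* and chr17:37023399-37023648 (minus strand) for *Mog*. Capitals mark the letters ACAAAG or their reverse complement CTTTGT, the core that SOX factors such as Sox10 bind.
Mobp: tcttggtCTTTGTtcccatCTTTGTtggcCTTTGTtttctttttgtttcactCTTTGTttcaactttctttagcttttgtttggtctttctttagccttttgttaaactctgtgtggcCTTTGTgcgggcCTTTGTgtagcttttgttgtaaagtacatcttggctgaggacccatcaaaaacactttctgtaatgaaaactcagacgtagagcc
Cldn11: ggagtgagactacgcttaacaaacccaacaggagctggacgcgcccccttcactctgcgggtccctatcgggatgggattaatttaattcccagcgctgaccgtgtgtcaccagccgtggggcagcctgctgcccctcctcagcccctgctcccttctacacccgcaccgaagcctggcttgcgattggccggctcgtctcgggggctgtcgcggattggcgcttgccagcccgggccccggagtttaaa
Cnp: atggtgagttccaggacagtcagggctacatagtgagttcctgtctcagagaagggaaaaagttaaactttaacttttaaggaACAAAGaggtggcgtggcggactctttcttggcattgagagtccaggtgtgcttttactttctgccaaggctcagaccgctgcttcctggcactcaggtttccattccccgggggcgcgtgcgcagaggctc
Mog: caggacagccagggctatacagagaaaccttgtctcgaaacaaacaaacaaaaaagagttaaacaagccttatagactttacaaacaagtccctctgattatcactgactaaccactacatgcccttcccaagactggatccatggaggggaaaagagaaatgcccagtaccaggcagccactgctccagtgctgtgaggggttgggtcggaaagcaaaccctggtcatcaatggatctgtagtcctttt
The *Mobp* stretch held 6 matches, all as CTTTGT. The *Cnp* stretch held 1, and those of *Cldn11* and *Mog* held none. *Opalin*, not shown, held 1 within the 250 bases before the start. *Mag*, also not shown, has more than 1 annotated start, and its 250-base windows held 1 or 0 matches depending on the start. ACAAAG on either strand was present in 16.5% of 32851 such 250-base windows. The other 3 motifs searched on both strands, the E-box CACGTG of the clock factors (6.02% of windows), the E-box form CAGCTG (13%) and TATAAA (12.4%), were in none of the windows of the 6 members searched. A match describes letters only, and these matches did not follow the grouping of the genes, since *Cldn11* had none and *Cnp* had 1.

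Per length, *Cnp* was the most abundant member at 167 ± 27.1 CPM (counts scaled to the TMM-adjusted library total) per kilobase of exon (SD, n = 110). It was followed by *Mbp* at 98.0 ± 60.1, *Mobp* at 43.0 ± 26.0, *Mog* at 19.0 ± 4.55, *Cldn11* at 13.6 ± 8.01, *Mag* at 13.3 ± 7.96 and *Opalin* at 1.63 ± 1.04. The length was that of all annotated exons of a gene joined, 8469 bases for *Mbp* and 3639 for *Cnp*. By median count *Mbp* (976.5) was above *Cnp* (848). The neighbours *Cldn11* and *Mag*, and *Mog* and *Cldn11*, differed by less than their spread. Among the other oligodendrocyte genes listed, those with high counts included *Nkx6-2* (median 294), *Bcas1* (147.5), *Plekhb1* (74) and *Olig1* (59.5). *Nkx6-2* and *Olig1* encode transcription factors of the lineage. *Nkx6-2*, *Olig1* and *Bcas1* each overlap an annotated gene on the other strand.

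The members fell into a group of 5 that ranged widely between libraries and a pair that did not. The normalised count (count divided by the size factor of the library) of *Mbp* ran from 317 to 3756 with a median of 897.5, an 11.9-fold range. *Mobp* ran from 115 to 1314, *Mag* from 20.9 to 250 and *Cldn11* from 5.43 to 112. *Cnp*, at a similar count to *Mbp*, ran only from 500 to 1217, a 2.43-fold range. The coefficient of variation was 61.4% for *Mbp*, 60.1% for *Mag*, 60.6% for *Mobp*, 59.1% for *Cldn11* and 64.5% for *Opalin*. It was 15.6% for *Cnp* and 23.8% for *Mog*, for which counting error alone gives 14.6%.

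Across libraries, the genes of the first group moved together. After the mean of each virus and ZT group was removed, the Spearman correlation over the 110 libraries was 0.61 to 0.98 for the 10 pairs among *Mbp*, *Mag*, *Mobp*, *Cldn11* and *Opalin*, highest for *Mbp* with *Mobp*. For the 11 pairs that include *Mog* or *Cnp* it was -0.05 to 0.12. These values describe libraries that share size factors and dissection, and they carry no test. The *Dnajc7* row correlated with *Mbp* at 0.37 and with *Cnp* at 0.17.

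**Figure D1:**
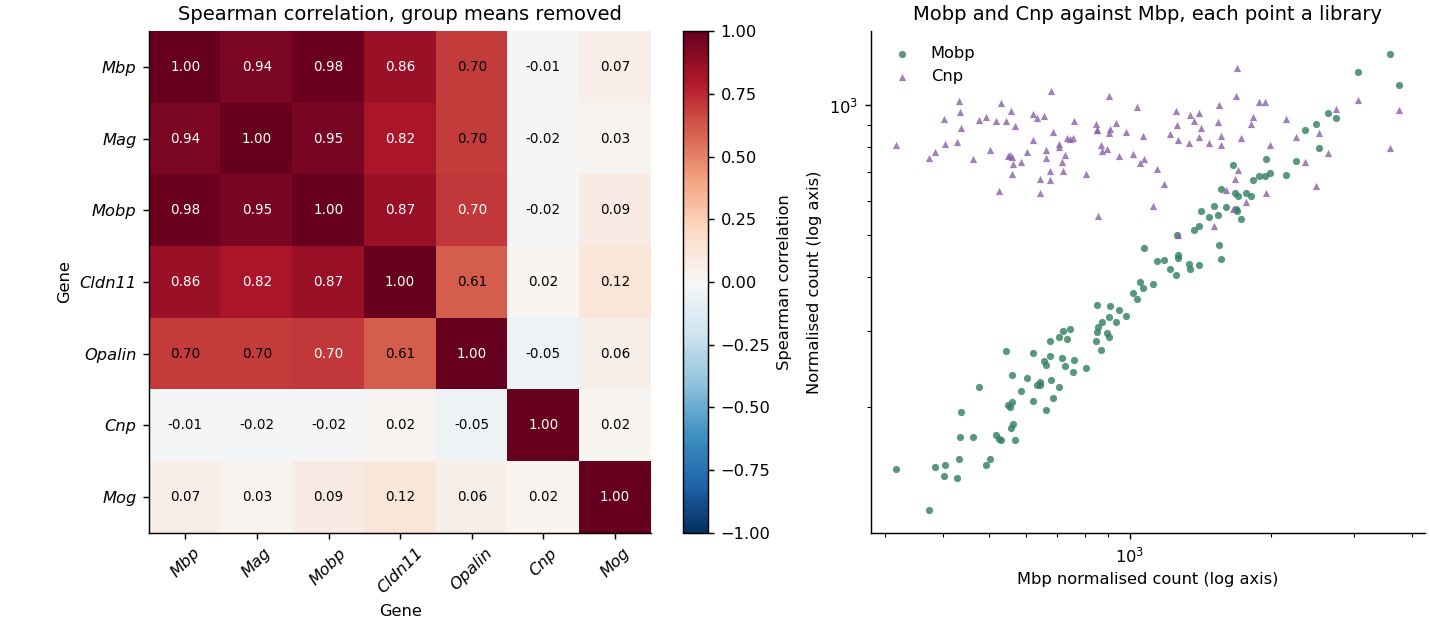
Left, Spearman correlation between genes over 110 libraries after the mean of each virus and ZT group was removed, as a colour scale from -1 to 1 with the value in each cell. Right, normalised counts of Mobp (circles) and Cnp (triangles) against Mbp on log axes, 1 point per library. Mbp, Mag, Mobp, Cldn11 and Opalin form a block of high values and Mobp climbs with Mbp, while the Cnp points stay between 500 and 1217 over the whole range of Mbp.

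Markers of other cells moved with *Mbp* in part. With group means removed, *Mbp* correlated at 0.97 with the summed level of 22 other myelin genes, at 0.95 with that of 10 oligodendrocyte precursor genes, whose largest member *Bcas1* marks newly formed oligodendrocytes, and at 0.64 with that of 9 lineage regulators. The correlation was 0.68 with 5 endothelial markers, 0.61 with 10 astrocyte markers, 0.42 with 10 neuronal markers, 0.26 with 10 microglial markers and 0.13 with 5 genes of histamine neurons. It was 0.10 with the total count and 0.21 with the share of reads in gene rows. *Cnp* correlated negatively with the neuronal sum (-0.57), the astrocyte sum (-0.53) and the share of reads in gene rows (-0.56). Of these, only the neuronal level and the share of reads in gene rows were used as covariates in fits. The part of the other sums and of the total count in the members' variation was not tested.

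Among 13884 genes, those most like the mean of the members over the 110 libraries, by the same correlation, included *Bcas1* (0.899), *Fth1* (0.876), *Plekhb1* (0.863) and *Sept4* (0.854). *Fth1* encodes ferritin heavy chain, which stores iron, and *Sept4* a septin of the cytoskeleton. The median over all genes was 0.030. The 5 least like it were clone-named genes without a position here, from RP23-27I6.2 (-0.747) to RP23-81G14.3 (-0.723).

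In the control viruses, 4 of the 7 members cycled over the day, with their highest levels around the end of the dark phase and lights on. JTK_CYCLE, a rank test of cycling with an exact null distribution, was reimplemented here. It called *Mbp*, *Mag*, *Mobp* and *Cldn11* at an adjusted p under 0.05, where 13.7% of all 18313 genes tested were called. *Mog* (adjusted p = 0.110), *Cnp* (0.267) and *Opalin* (1) were not called. This adjusted p covers the templates tried for a gene and not the number of genes. Over all genes, only *Cldn11* stayed under a Benjamini-Hochberg q of 0.05 (q = 0.0271), whereas *Mbp* had q = 0.0577, *Mobp* 0.0527 and *Mag* 0.142.

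In the controls *Mbp* had a median normalised count of 1548 at lights on (ZT0, 736 to 1942, n = 9), 806 at ZT4 (401 to 1888, n = 11) and 661 at ZT8 (373 to 3756, n = 13). It was 677 at ZT12 (384 to 2748, n = 13), 885 at ZT16 (531 to 3070, n = 14) and 1370 at ZT20 (602 to 2496, n = 11). ZT0 and ZT20 were thus high and ZT8 and ZT12 low, but the ranges of every pair of neighbouring times overlapped. JTK_CYCLE placed the peak of *Mbp* at ZT0 with a 20 h template (adjusted p = 0.00124, exact null).

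*Mobp* was likewise high at ZT0 and ZT20 and lowest at ZT8, with medians in time order of 474, 255, 222, 283, 333 and 514. *Cldn11* had medians of 39.5, 24, 17.8, 24, 28.4 and 50.4. JTK_CYCLE gave *Mobp* an adjusted p of 0.00102 and *Cldn11* one of 0.000255, the latter with a 24 h template that peaked at ZT20. *Mag* followed with 94.2 at ZT0, 46.0 at ZT8 and 83.1 at ZT20 (adjusted p = 0.00798). *Cnp* instead had its high medians at ZT0 to ZT8 (905, 907 and 920) and lower ones at ZT12 to ZT20 (764, 791 and 777). *Mog* stayed between 38.2 and 47.7, and *Opalin* between 4.20 and 7.71, at every ZT.

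**Figure D2:**
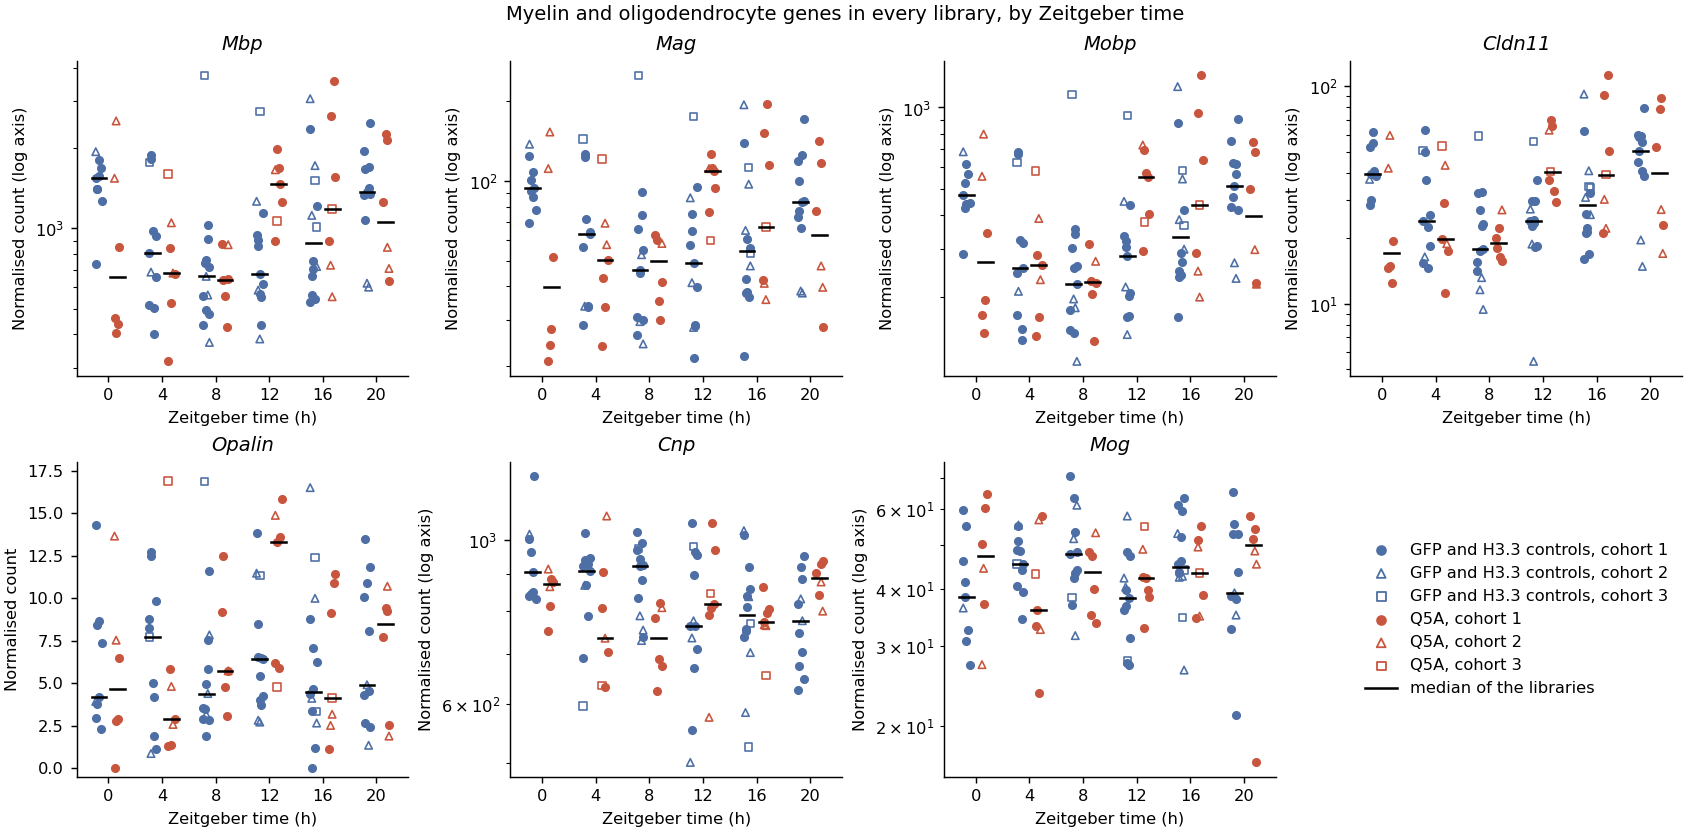
Normalised count of each gene in every library by Zeitgeber time (log axis, linear for Opalin). Blue marks GFP and H3.3 controls and red Q5A; filled circles are cohort 1, open triangles cohort 2 and open squares cohort 3, and the black lines are medians of all libraries of the arm. In controls Mbp, Mag, Mobp and Cldn11 are high at ZT0 and ZT20 and low at ZT8; at ZT0 the 4 Q5A libraries of cohort 1 lie low while the 2 of cohort 2 lie high.

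A 24 h cosinor fit on the counts (edgeR quasi-likelihood F test, Benjamini-Hochberg adjustment over all genes) gave the size of the cycle in controls. It called *Cldn11* (log2 amplitude 0.52 ± 0.11 SE, peak ZT21.1, adjusted p = 0.00382) and *Mobp* (0.44 ± 0.12, peak ZT20.5, adjusted p = 0.0267), 2 of the 6 members tested, where 14.5% of all genes were called. *Mbp* fell just outside the threshold (0.40 ± 0.13, peak ZT21.2, adjusted p = 0.0507). *Mag* (0.33 ± 0.13) had an adjusted p of 0.147, *Cnp* (0.09 ± 0.04, peak ZT3.6) one of 0.146 and *Mog* (0.03 ± 0.06) one of 0.897. *Opalin* was below the count filter. The median amplitude of the 6 members was 0.36, against 0.18 over all genes tested.

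The cohorts bore on this count. With cohort as a term over all cohorts, added after the data were seen, 4 of 7 members were called (*Mbp* 0.57 ± 0.11, adjusted p = 0.00112). The share of all genes called with that term is not given here. Within cohort 1 (52 control libraries), all 4 of *Mbp* (0.64 ± 0.10, adjusted p = 0.000107), *Mag* (0.54 ± 0.12), *Mobp* (0.62 ± 0.11) and *Cldn11* (0.62 ± 0.10) were called by the cosinor, where 21.1% of genes were called. They peaked between ZT21.2 and ZT22.3. JTK_CYCLE called the same 4 in cohort 1, against 12% of genes. In that cohort the lowest of 9 *Mbp* values at ZT20 (1072) lay above the highest of 9 at ZT8 (1034). The share of all genes separated in this way was not counted. The 14 control libraries of cohort 2 peaked between ZT18.3 and ZT19.1 with amplitudes of 0.68 to 0.92 for these genes. None of them was called by the cosinor there (lowest adjusted p = 0.236), and the share of all genes called in that fit is not given here. JTK_CYCLE called 2 of 7 in these libraries, *Mobp* and *Cldn11* (lowest adjusted p = 0.00880), where 4.55% of all 18313 genes were called. In that setting 0 genes had a Benjamini-Hochberg q under 0.05. Between the cohorts, no member had a called difference of rhythm in the controls (lowest adjusted p = 0.589, *Cldn11*), where 0.00746% of genes were called, and DESeq2 called none of the 7 either.

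Each control virus alone gave fewer calls. JTK_CYCLE called 1 of 7 members in GFP, *Cldn11* (adjusted p = 0.0120, 11.1% of all genes called), and 1 in H3.3, *Mobp* (adjusted p = 0.0325, 6.39% of genes). In cohort 1 it called *Cldn11* alone in GFP (7.15% of genes) and *Mbp*, *Mag*, *Mobp* and *Cldn11* in H3.3 (8.62% of genes), with the highest H3.3 medians of *Mbp* at ZT20 and ZT0. A difference of cycling between GFP and H3.3 was not tested.

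Other oligodendrocyte genes were called alongside. In controls JTK_CYCLE called 13 of 22 other myelin genes, 4 of 9 lineage regulators (*Sox10*, *Olig2*, *Nkx2-2* and *Myrf*) and 4 of the 10 precursor genes tested. By cosinor, 9 of 19 other myelin genes were called, with a median amplitude of 0.41. The strongest were *Gjc3*, a gap junction connexin of oligodendrocytes (0.56 ± 0.12, peak ZT20.7, adjusted p = 0.00303), *Mal*, a myelin proteolipid (0.47 ± 0.10, peak ZT20.7, adjusted p = 0.00357), and *Ermn*, a cytoskeletal protein of myelinating cells (0.62 ± 0.14, peak ZT20.5, adjusted p = 0.00660). *Ermn* overlaps *Galnt5* on the other strand.

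Markers of other cells were tested in the same way in the controls, where 13.7% of all genes were called. JTK_CYCLE called 2 of 10 neuronal markers (*Snap25* and *Tubb3*), 3 of 10 astrocyte markers, 3 of 10 microglial markers, 1 of 5 endothelial markers, 2 of 5 genes of histamine neurons and neither of the peripheral myelin genes tested. The summed neuronal level had medians, from ZT0 to ZT20, of 1085, 967, 919, 1089, 1157 and 1393, and the astrocyte sum 682, 585, 546, 624, 767 and 818. These sums, like *Mbp*, were low at ZT8 and high at ZT20. With the neuronal level as a covariate, added after the data were seen, 1 of 7 members (*Cldn11*) was called over all cohorts and 4 within cohort 1. With cohort 3 left out, also added after the data were seen, 4 of 6 were called (*Mbp*, *Mag*, *Mobp* and *Cldn11*). For the neuronal covariate and for the fit without cohort 3, the share of all genes called is not given here.

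In Q5A none of the 7 members was called over all cohorts. JTK_CYCLE gave adjusted p values from 0.0629 (*Cldn11*, 24 h template, peak ZT16) upwards, with 0.124 for *Mbp*, where 4.07% of genes were called. The cosinor also called 0 of 7, where 0.181% of genes were called. At an unadjusted p under 0.05 it had 4 of 7, against 15.1% of all genes, and DESeq2 called 1, *Cldn11*, against 1.04% of genes. The fitted amplitudes were 0.57 ± 0.16 for *Mbp* (peak ZT16.8, adjusted p = 0.158), 0.57 ± 0.16 for *Mobp* (peak ZT16.7, adjusted p = 0.147) and 0.63 ± 0.16 for *Cldn11* (peak ZT16.5, adjusted p = 0.116). The members' median amplitude was 0.42, against 0.16 over all genes.

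*Mbp* in Q5A had medians of 657 at ZT0 (404 to 2532, n = 6), 680 at ZT4 (317 to 1603, n = 7) and 642 at ZT8 (428 to 873, n = 6). It then had 1472 at ZT12 (895 to 1994, n = 7), 1183 at ZT16 (554 to 3590, n = 7) and 1054 at ZT20 (633 to 2261, n = 6). The lowest library at ZT12 lay above the highest at ZT8, as it did for 0.0864% of all 13891 genes that passed the count filter. *Cldn11* did not overlap between these times either, from 15.8 to 27.0 at ZT8 to 29.4 to 69.7 at ZT12. *Mobp* (137 to 314 and 296 to 726) and *Mag* (29.8 to 62.5 and 59.6 to 126) overlapped between these times.

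Within cohort 1, the Q5A course was large and peaked earlier than in the controls. The cosinor called 4 of 6 members there, where 9.1% of genes were called, with amplitudes of 1.08 ± 0.15 for *Mbp* (peak ZT15.9, adjusted p = 7.46e-05), 1.052 ± 0.16 for *Mag* (ZT15.3), 1.052 ± 0.15 for *Mobp* (ZT16.1) and 1.19 ± 0.17 for *Cldn11* (ZT16.3). JTK_CYCLE called the same 4, all with a 24 h template and a peak at ZT16 (*Mbp* adjusted p = 0.000488), against 7.45% of genes. *Mbp* medians in these libraries, from ZT0 to ZT20, were 450, 600, 642, 1472, 2108 and 1706. *Cnp* (0.12 ± 0.05) and *Mog* (0.16 ± 0.10) were not called.

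**Figure D3:**
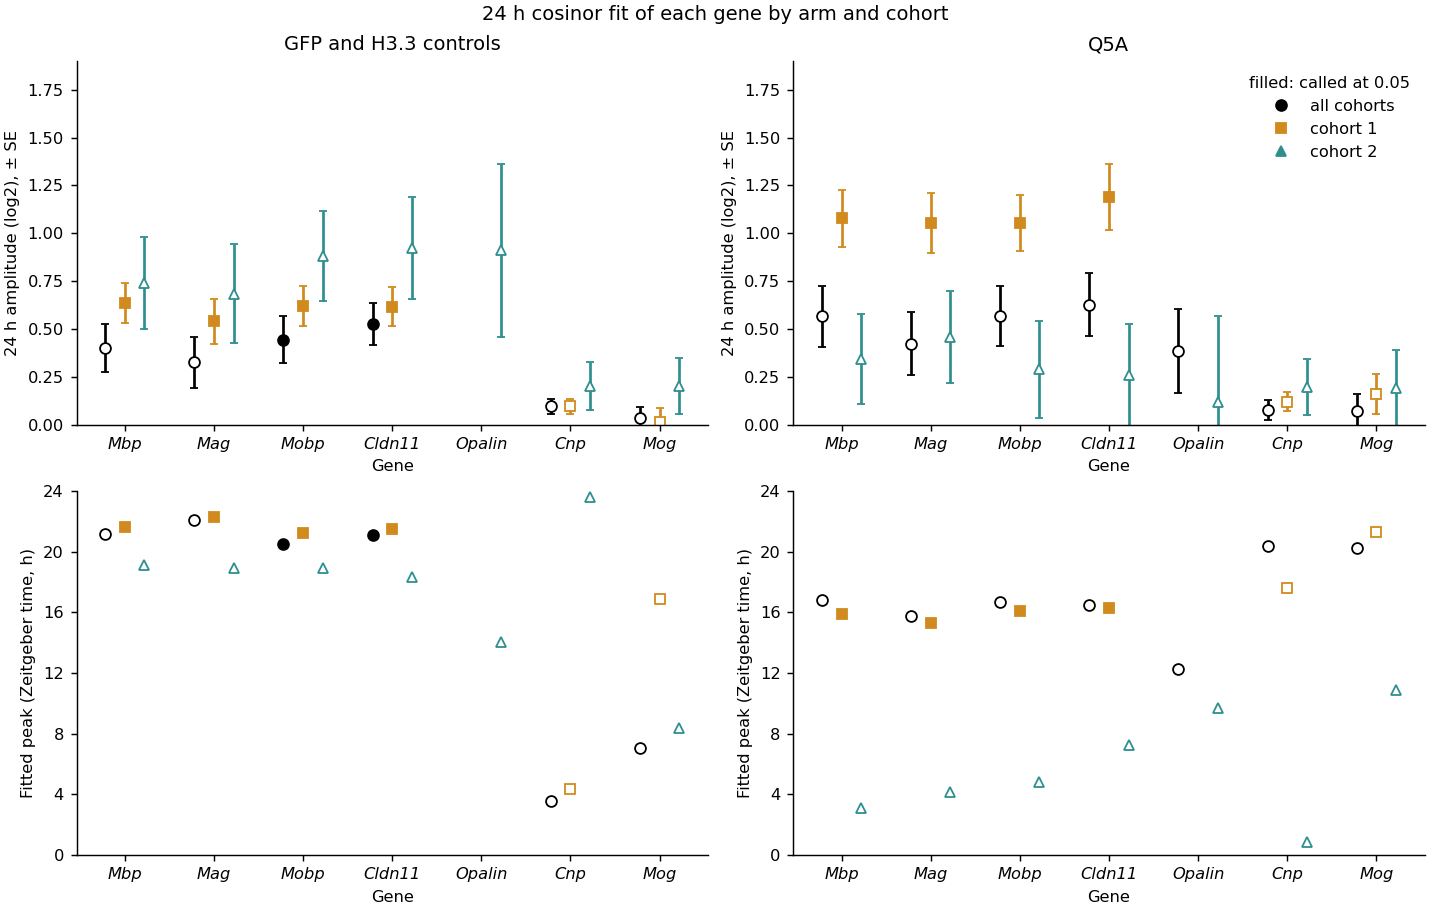
Upper row, log2 amplitude of the 24 h cosinor with its SE for each gene in controls (left) and Q5A (right), over all cohorts (circles), in cohort 1 (squares) and in cohort 2 (triangles). Lower row, the fitted peak in Zeitgeber time; filled symbols were called at an adjusted p under 0.05, and no symbol is drawn where the gene was below the count filter. In cohort 1, Mbp, Mag, Mobp and Cldn11 peak near ZT21 to ZT22 in controls and near ZT15 to ZT16 in Q5A, and the Q5A amplitudes of cohort 2 are smaller, with fitted peaks from ZT3 to ZT7.

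The rhythm of Q5A was tested against that of the controls by letting the cosine and sine terms of the cosinor differ between the arms. Over all cohorts, 0 of 7 members were called, where 0.0905% of genes were called, by edgeR and by DESeq2. At an unadjusted p under 0.05 there were 4 of 7, against 15.5% of all genes, the smallest for *Cldn11* (adjusted p = 0.241) and with *Mbp* at an adjusted p of 0.287. The fitted difference had an amplitude of 0.55 ± 0.21 for *Mbp* and 0.67 ± 0.20 for *Cldn11*. It was 0.11 ± 0.10 for *Mog* and 0.15 ± 0.07 for *Cnp*.

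Within cohort 1, 5 of 7 members were called for a difference of rhythm between Q5A and controls, where 6.68% of genes were called. The amplitude of the difference was 1.23 ± 0.19 for *Mbp* (adjusted p = 6.97e-05), 1.32 ± 0.21 for *Mag*, 1.12 ± 0.19 for *Mobp*, 1.24 ± 0.19 for *Cldn11* and 1.08 ± 0.31 for *Opalin* (adjusted p = 0.0434). *Cnp* (0.23 ± 0.07, adjusted p = 0.0745) and *Mog* (0.17 ± 0.13, adjusted p = 0.588) were not called. In the same fit 16 of 19 other myelin genes, 4 of 8 lineage regulators, 2 of 7 precursor genes, 1 of 10 neuronal markers (*Snap25*), 1 of 10 astrocyte markers (*Gfap*), 1 of 7 microglial markers (*C1qc*) and the 1 peripheral myelin gene tested (*Pmp22*) were called. The smallest p values of the oligodendrocyte lists were for *Sox10*, a regulator of myelin genes (0.93 ± 0.14, adjusted p = 6.97e-05), *Apod*, a lipid carrier (1.49 ± 0.26), and *Bcas1* (0.96 ± 0.17). With the neuronal level as a covariate, 6 of 7 members were called in cohort 1, and the share of all genes called in that fit is not given here.

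In cohort 2 no member was called for a difference of rhythm, and none in Q5A by the cosinor or JTK_CYCLE. In the Q5A libraries of cohort 2, JTK_CYCLE called 2.69% of all 18313 genes, and 0 genes had a Benjamini-Hochberg q under 0.05. The share of all genes called by the cosinor fits of cohort 2 is not given here. The 10 Q5A libraries of cohort 2 gave *Mbp* an amplitude of 0.34 ± 0.24 with a fitted peak at ZT3.1, and the cosinor called none (lowest adjusted p = 0.665). The test of rhythm against the controls of cohort 2 called none either (lowest adjusted p = 0.986). The rhythm of the Q5A libraries was therefore tested between the cohorts, a test added after the data were seen. It called 4 of 7 members, where 3.35% of genes were called, namely *Mbp* (1.44 ± 0.29, adjusted p = 0.0127), *Mag* (1.52 ± 0.29, adjusted p = 0.00808), *Mobp* (1.35 ± 0.29, adjusted p = 0.0277) and *Cldn11* (1.39 ± 0.31, adjusted p = 0.0268). Without replicate 1 of cohort 1 at each ZT it called 2 members and without replicate 4 it called 1. The share of all genes called under these settings is not given here. *Mog*, *Cnp* and *Opalin* were not called.

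At ZT0 the Q5A libraries of cohort 1 had *Mbp* at 463, 404, 437 and 851, whereas those of cohort 2 had 1543 and 2532. At ZT16 cohort 1 had 3590, 1566, 900 and 2650, whereas cohort 2 had 727 and 554 and the library of cohort 3 had 1183. At these times cohort 2 was high where cohort 1 was low and low where it was high, on 2 libraries per time. At ZT12 both were high (median 1472 in cohort 1, and 1661 in the 1 library of cohort 2), and cohort 2 had a median of 865 at ZT4 (n = 2) and 868 at ZT8 (n = 1). *Cnp* in the same libraries was between 752 and 885 in cohort 1 and at 913 and 864 in cohort 2 at ZT0.

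Comparing levels at a given ZT, no member was called between Q5A and controls at any of the 6 times over all cohorts (edgeR, adjusted p under 0.01, 0% of genes called at each ZT, while 154 to 1856 genes per ZT had an unadjusted p under 0.05). DESeq2 called none of the members either. With cohort as a term, added after the data were seen, the differences at ZT0 were -1.14 ± 0.24 for *Mbp* (adjusted p = 0.0227), -1.23 ± 0.24 for *Mag* (0.0150), -0.92 ± 0.21 for *Mobp* (0.0343) and -1.02 ± 0.28 for *Cldn11* (0.0706), which are over 1.5 times those without it but did not pass 0.01. With cohort and replicate number as a block, *Mbp*, *Mag* and *Mobp* were called at ZT0, and the share of all genes called in that fit is not given here. *Cnp* had its smallest p at ZT8 (-0.23 ± 0.10, adjusted p = 0.231). Without these terms the log2 difference at ZT0 was -0.51 ± 0.32 for *Mbp*, -0.59 ± 0.33 for *Mag*, -0.43 ± 0.29 for *Mobp* and -0.62 ± 0.30 for *Cldn11* (adjusted p of 0.888 for each). At ZT12 all 7 members had a positive difference. It was 0.92 ± 0.27 for *Cldn11*, 0.69 ± 0.29 for *Mobp*, 0.68 ± 0.31 for *Mag* and 0.67 ± 0.29 for *Mbp*, these 4 with an unadjusted p under 0.05 and every one of them with an adjusted p that rounds to 1.

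At ZT0 in cohort 1 alone, 4 of the 6 members tested were called lower in Q5A, where 0.34% of genes were called lower (edgeR, adjusted p under 0.01). The log2 difference between 4 Q5A and 8 control libraries was -1.41 ± 0.21 for *Mbp* (adjusted p = 0.00252), -1.58 ± 0.23 for *Mag* (0.00252), -1.14 ± 0.21 for *Mobp* (0.00572) and -1.47 ± 0.25 for *Cldn11* (0.00436), by edgeR. *Mag* lay between 20.9 and 51.7 in Q5A and between 69.5 and 124 in the controls, and *Cldn11* between 12.4 and 19.4 and between 28.4 and 61.6, so for these 2 the groups did not overlap, with every Q5A library below every control library for 0.9% of genes. *Mbp* (404 to 851 against 736 to 1809) and *Mobp* (147 to 344 against 288 to 616) overlapped in part. *Cnp* (-0.17 ± 0.12) and *Mog* (0.35 ± 0.22) were not called, and *Bcas1* (-1.27 ± 0.21) and *Mal* (-1.31 ± 0.25) fell with the 4. In these libraries the summed neuronal level was 910 to 1179 in Q5A and 958 to 1472 in controls, and the astrocyte sum 552 to 633 and 507 to 786. The endothelial sum was 15.8 to 25.9 (median 17) in Q5A and 21.6 to 50.4 (median 25.8) in controls, and the microglial sum 311 to 454 (median 356) and 384 to 581 (median 418). All 4 pairs of ranges overlapped, and their part in the difference at ZT0 was not tested.

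**Figure D4:**
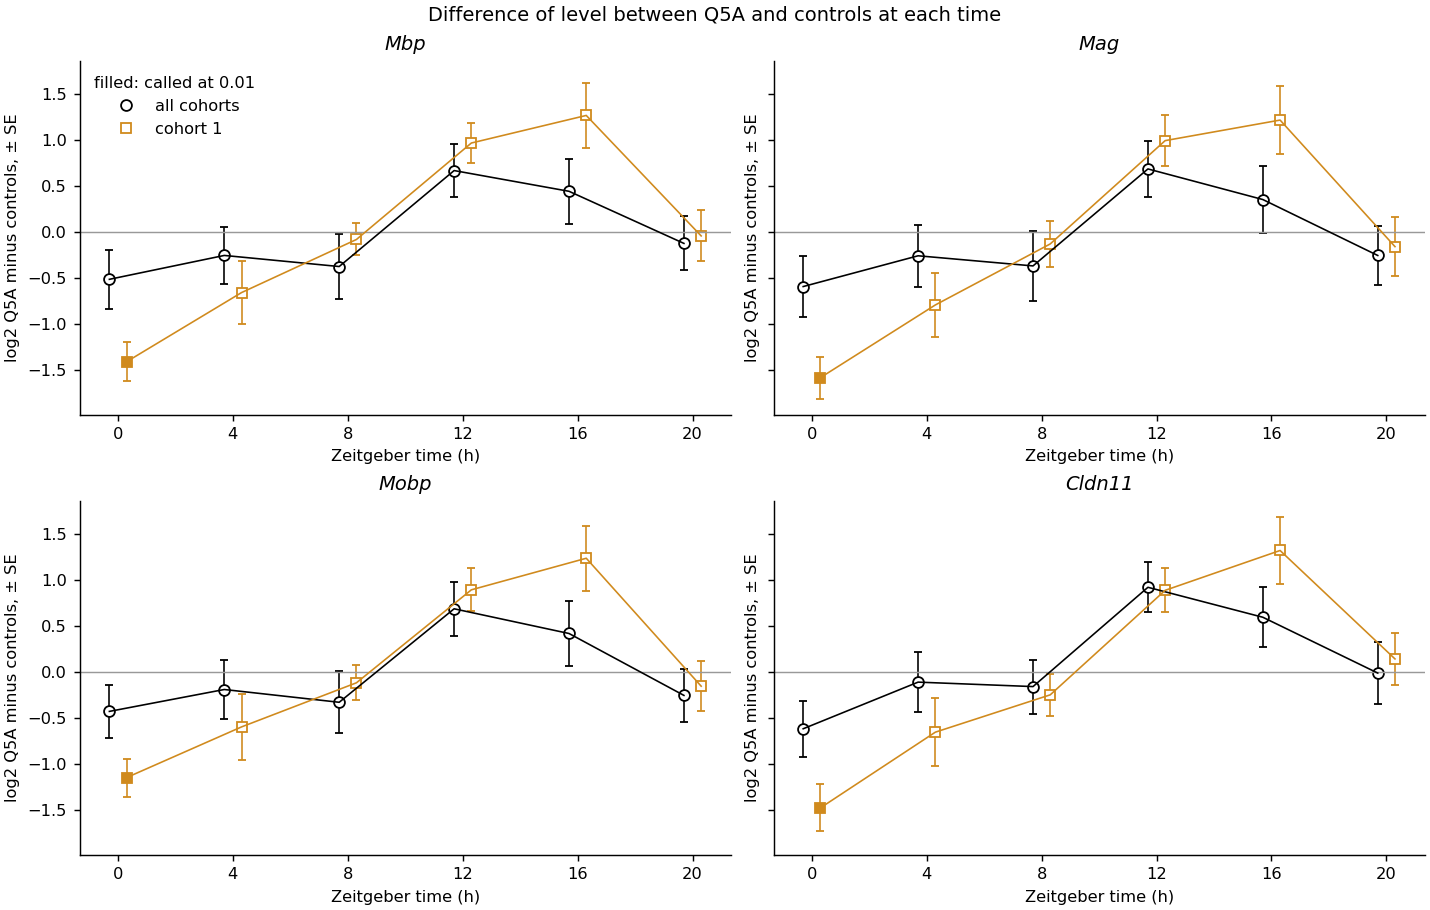
Log2 difference of level, Q5A minus controls, at each Zeitgeber time with its SE (edgeR) for Mbp, Mag, Mobp and Cldn11, over all cohorts (circles) and in cohort 1 (squares); filled symbols were called at an adjusted p under 0.01. In cohort 1 the difference is below 0 at ZT0 (-1.41 for Mbp) and above 0 at ZT12 (0.96 for Mbp), and only the ZT0 values are called.

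Over all ZT together, no member was called between Q5A and controls (0 of 7 by edgeR and by DESeq2, 0% of genes called, 660 of 12159 genes at an unadjusted p under 0.05). The log2 difference was 0.02 for *Mbp* (interval of 2 SE, -0.29 to 0.33), 0.16 for *Cldn11* (-0.13 to 0.45), 0.11 for *Opalin* (-0.26 to 0.48) and -0.05 for *Cnp* (-0.14 to 0.05). None of the 20 other myelin genes tested was called.

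The control viruses were compared with each other in the same way. H3.3 minus GFP over all ZT gave 0 of 7 members (edgeR and DESeq2, 0% of genes called, 453 of 12300 genes at an unadjusted p under 0.05), with log2 differences of 0.17 ± 0.18 for *Mbp*, 0.15 ± 0.18 for *Mobp*, 0.34 ± 0.23 for *Opalin* and 0.01 ± 0.06 for *Cnp*. At each of the 6 ZT, 0 of the 6 members tested were called by either tool, where 0% of genes were called by edgeR (102 to 2877 genes at an unadjusted p under 0.05). *Mbp* medians over all ZT were 939 in GFP (401 to 2359, n = 32), 903 in H3.3 (373 to 3756, n = 39) and 873 in Q5A (317 to 3590, n = 39), with ranges that overlapped throughout. The libraries of cohort 3 bear on the H3.3 values, since that cohort holds no GFP. Without them the *Mbp* difference was -0.11.

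The cohorts differed in level. Compared with cohort 1, *Mbp* was higher in cohort 3 by 1.12 ± 0.27 on the log2 scale (adjusted p = 0.000542), *Mag* by 1.08 ± 0.28 (0.00123) and *Mobp* by 1.06 ± 0.27 (0.000913), with 3 of 7 members called higher where 10.9% of all genes were. *Cldn11* (0.66 ± 0.26, adjusted p = 0.0385) and *Opalin* (0.68 ± 0.34) did not pass the threshold of 0.01, and *Cnp* (-0.22 ± 0.09) and *Mog* (-0.16 ± 0.15) were on the other side of 0. *Mbp* in the 8 libraries of cohort 3 ran from 1014 to 3756 with a median of 1558, against 884 (317 to 3590) in cohort 1.

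Genes of the other lists were also called in cohort 3. Higher there were 9 of 22 other myelin genes, led by *Cryab*, a small heat shock protein (1.28 ± 0.24), *Apod* (1.46 ± 0.32) and *Klk6*, a protease of mature oligodendrocytes (2.29 ± 0.54). *Klk6* was near the floor, with a median count of 1 and a count in 77 of the 110 libraries. *Cryab* overlaps *Hspb2* on the other strand. Of 8 lineage regulators tested 1 was higher, *Sox10*. Of 9 precursor genes 2 were higher and 1 lower, and *Prx* of the peripheral myelin list was lower. Higher too were 3 of 10 neuronal, 3 of 10 astrocyte and 2 of 9 microglial markers, and none of the 4 endothelial markers tested. The summed neuronal level was 1110 to 2125 in cohort 3 and 771 to 2571 in cohort 1. Their part in the difference between cohorts was not tested. Cohort 2 minus cohort 1 gave 0 of 7 members by edgeR and by DESeq2, where 1.93% of genes were called, with log2 differences of -0.13 (*Cldn11*) to 0.08 (*Mbp*) and 0 of 7 at an unadjusted p under 0.05.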

How the data were processed

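RNA was measured by RNA-seq in 111 libraries of TMN tissue in 18 groups of virus and ZT, of which 110 remained after a pair of indistinguishable libraries was merged. The deposited files hold raw gene counts, made by the authors with bcl2fastq, STAR 2.7.11b (GRCm38) and HTSeq 2.0.5 (stranded, union mode, Ensembl annotation), with no normalisation. Replicates are the separate samples of the labels. The members and gene lists were chosen with earlier results of these data known. A further 18 files, which no label ties to a sample or time, were not used here.

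A normalised count is the count over the size factor of its library (median of ratios). Cycling was tested with a reimplementation of JTK_CYCLE (templates of 8 to 24 h, exact null, genes with a mean count of at least 1), not with the program the study used. A 24 h cosinor, the difference of rhythm and level differences were fitted across all genes with edgeR 4.0.16 (quasi-likelihood F test, TMM, filterByExpr with a minimum count of 10, Benjamini-Hochberg adjustment) in R 4.3.3, with calls at an adjusted p under 0.05 for rhythm and 0.01 for levels. DESeq2 1.42.0 was an alternative. An amplitude is the log2 distance from the mean of the fitted curve to its peak. Intervals on log2 differences are 2 SE to either side. Named list genes are up to 3 with the smallest p in a comparison, the 5 with the highest median count, and the 5 most and least like the members. Genes named for a count of 5 or fewer were chosen after their values were seen. Some genes of these lists are not reported here. Tested on simulated counts, the fits recovered 100% of 157 changed genes for the cosinor in controls (10560 genes), 94.25% of 174 for the difference of rhythm (11752 genes) and 99.45% of 181 for Q5A minus controls at ZT0 (9931 genes). The size of the change set in the changed genes is not given here, and recovery of a smaller one was not tested. Same-numbered libraries of a cohort did not deviate together (median correlation 0.012 over 778 pairs), so the numbers were not taken as pairs. Alternatives were other normalisation, filters, cohorts and covariates, and leaving out each replicate number of cohort 1.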

Additional observations from a re-analysis of the deposited data

Results flagged for a closer look

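In 126 groups of 1 member in the libraries of 1 virus and ZT, the highest or lowest library stood apart by Dixon's test in 15, or 11.9%. The limits used flag about 1 in 20 independent groups of normally distributed values. These values were not log-transformed, and *Mbp*, *Mag* and *Mobp* varied together, so 11.9% is not read as an excess. These came from 9 libraries, and 13 of the 15 were the highest value of the group. Values are normalised counts.

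The H3.3 library of cohort 3 at ZT8 (replicate 1) was highest for *Mbp* (3756), *Mag* (249.9) and *Mobp* (1116). That at ZT12 (cohort 3, replicate 1) was highest for *Mbp* (2748), *Mag* (175) and *Mobp* (935). Replicate 1 of cohort 2 in H3.3 at ZT16 was highest for *Mbp* (3070), *Mobp* (1194) and *Cldn11* (92.1). In GFP at ZT20, replicate 4 of cohort 1 was highest for *Mbp* (1673).

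*Cnp* stood apart in GFP at ZT0 (replicate 4 of cohort 1, 1217, others 841 to 850) and was lowest in replicate 3 of cohort 1 at ZT4 (693). *Opalin* was highest in GFP at ZT8 (replicate 2 of cohort 1, 7.55) and in Q5A at ZT4 (cohort 3, 16.9). *Mog* was lowest in Q5A at ZT20 (replicate 3 of cohort 1, 16.7).

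The 24 h rhythm of the Q5A libraries differed between cohorts 2 and 1 by edgeR's test of the difference itself. The amplitude of the difference was 1.44 for *Mbp*, 1.52 for *Mag*, 1.35 for *Mobp* and 1.39 for *Cldn11*. The cause was not tested.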

How the results depend on the processing

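Counts are members called, given here without the share of all genes called under each setting. Leaving out a replicate number means leaving it out of cohort 1. The settings without cohort 3, with cohort as a term, with cohort 2 only and with the neuronal level or the share of reads in gene rows as a covariate, and the test of rhythm between cohorts, were chosen after seeing the data. JTK_CYCLE called 2 in controls in cohort 2 only (main 4, leaving out a replicate number 3 to 4). In Q5A (main 0) it called 4 in cohort 1, 2 with a 24 h period only and 1 without cohort 3. In GFP alone (main 1) it called 2 with TMM-scaled CPM and 2 with a 24 h period only, and 0 to 1 when a replicate number was left out. In H3.3 alone (main 1) it called 4 in cohort 1, 4 without cohort 3 and 2 with a 24 h period only, and 0 to 1 when a replicate number was left out. The cosinor in controls (main 2) called 4 in cohort 1, 4 without cohort 3, 4 in cohort 1 with the neuronal covariate, 4 with cohort as a term, 1 with ZT as a factor, 1 with the neuronal covariate, 0 in cohort 2 only, and 1 to 2 when a replicate number was left out. In Q5A (main 0) it called 4 in cohort 1, 6 there with the neuronal covariate, 2 without a filter, 1 by DESeq2 and 1 without cohort 3. The difference of rhythm (main 0) was called for 5 in cohort 1 and for 6 there with the neuronal covariate. Q5A minus controls at ZT0 (main 0) was called for 4 in cohort 1. The rhythm difference between cohorts in Q5A (main 4) was called for 1 to 4 when a replicate number was left out. With cohort and replicate number as a block, 4 members were called by the cosinor in controls and 3 at ZT0, and the replicate block changed no other count of members called. The numbers do not pair the libraries (171 of 778 same-numbered pairs had a correlation over 0.1). With cohort as a term alone, 0 members were called at ZT0 and 0 in the difference of rhythm.

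Small log2 differences that were not called changed sign. For Q5A minus controls over all ZT these were *Mbp* (-0.040 with the neuronal covariate, -0.062 against H3.3 alone, -0.066 to 0.029 without a replicate number), *Mog* (0.055 in cohort 2 only, -0.054 to 0.035 without a replicate number), *Mag* (0.055 in cohort 1, 0.021 with cohort as a covariate, 0.022 with the replicate block, 0.075 without cohort 3, 0.12 in cohort 2 only), *Mobp* (-0.045 with the neuronal covariate, -0.047 against H3.3 alone, -0.058 to 0.034 without a replicate number) and *Opalin* (-0.029 against H3.3 alone). For H3.3 minus GFP they were *Mbp* (-0.058 in cohort 1, -0.043 with cohort as a covariate, -0.024 with the replicate block, -0.11 without cohort 3, -0.19 in cohort 2 only), *Mobp* (-0.065, -0.037, -0.0078, -0.099 and -0.050 in the same order), *Mag* (-0.023 without cohort 3), *Opalin* (-0.29 in cohort 2 only), *Mog* (-0.0094 without a filter, -0.045 to 0.055 without a replicate number), *Cnp* (-0.0076 without a filter, -0.00094 to 0.032 without a replicate number) and *Cldn11* (0.10 in cohort 2 only, -0.074 to 0.022 without a replicate number). For cohort 2 minus cohort 1 they were *Mog* (0.0020 without a filter), and without a replicate number *Mbp* (-0.018 to 0.17), *Mog* (-0.068 to 0.030), *Mag* (-0.072 to 0.14) and *Mobp* (-0.051 to 0.11). The cause of these changes was not tested. Of the results for single genes, 1131 kept their direction and side of the threshold, 63 passed it only under the alternative, 23 no longer passed it and 44 reversed. *Opalin*, with a median count of 5.5, was limited by depth.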
